A study of Mus musculus with 72 samples.

Results

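The 9 odorant receptor genes described here are those that classic work on olfactory axon targeting relied on. They were chosen by name and not by a cut on their values, though with earlier results of these data known. They are Olfr17 (the P2 receptor, not a postnatal day), Olfr151 (M71), Olfr160 (M72), Olfr16 (MOR23), Olfr2 (I7), Olfr1507 (MOR28), Olfr1508 (MOR10), Olfr73 (mOR-EG) and Olfr78. They make up 9 of the 1407 genes with an odorant receptor symbol among the 54532 gene IDs of the count table. Each was found by its symbol in the table of TPM values, which are transcript levels corrected for length and scaled to the same total in each library, and its counts were matched by Ensembl ID.

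Each mature olfactory sensory neuron expresses 1 odorant receptor gene from 1 allele, and the axons of all neurons with the same receptor converge on the same few glomeruli of the olfactory bulb. The receptor itself takes part in that targeting: swapping one receptor's coding sequence for another's moves the glomerulus, and cAMP signalling downstream of the receptor sets the levels of axon guidance and adhesion molecules. Frizzled receptors, of which Fzd1 is one, receive Wnt signals and are also used in axon guidance.

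The samples were olfactory epithelium, the tissue of the nose that holds the sensory neurons, from mice of 3 genotypes, with ages given as postnatal days (P0 is the day of birth). Control mice carried Omp-IRES-tTA, in which the promoter of Omp, the olfactory marker protein gene of mature sensory neurons, drives the tetracycline-controlled activator tTA. The ectopicFzd1 mice carried Omp-IRES-tTA together with tetO-Fzd1-IRES-tdTomato, so tTA switches on Fzd1 and the red fluorescent protein tdTomato in the same neurons unless doxycycline (DOX) is given. Titles mark the ectopicFzd1 mice as het (heterozygous) for tetfzd1 and the control mice as wt, or as ctrl at P3 without DOX. The Fzd1lacZ mice have the genotype label Fzd1-lacZ and titles that name a homozygous knockout. Without DOX, each genotype has groups of P0, P3, P7, P10 and P14 mice. DOX from P0 onward was given to further control and ectopicFzd1 mice, taken at P1, P3, P7, P10 and P14. No group carried the tetO allele alone, so effects of Fzd1 and of tdTomato cannot be told apart, and the Fzd1lacZ label names no Omp-IRES-tTA, so the lack of Fzd1 and the lack of that allele cannot be told apart either. Of the 25 groups, 22 held 3 libraries, and control at P3 and at P7 and ectopicFzd1 at P14, all without DOX, held 2. Nothing in the labels states that each library is its own animal, so every p-value here reflects only the spread between these libraries, which may be technical.

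Among these receptors are 2 pairs of close relatives, and the start of each coding sequence is printed because reads from such relatives are the ones a counter could confuse. M71 and M72 lie 13.7 kb apart on chromosome 9, and their aligned coding sequences are identical at 899 of 929 bases (96.77%). MOR28 and MOR10 lie 21.3 kb apart on chromosome 14 and are identical at 868 of 933 bases (93.03%). No other pair of the 9 reached more than 62.29%. The first 240 coding bases of the reference genome mm10 follow, 5′ to 3′, in lower case with the bases that differ from the pair partner in capitals. There are 11 such bases between M71 and M72 and 10 between MOR28 and MOR10.
M71 (Olfr151): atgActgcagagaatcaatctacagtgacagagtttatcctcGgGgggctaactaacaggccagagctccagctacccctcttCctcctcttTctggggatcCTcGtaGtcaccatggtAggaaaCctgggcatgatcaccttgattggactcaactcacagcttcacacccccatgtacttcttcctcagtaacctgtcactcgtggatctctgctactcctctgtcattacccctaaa
M72 (Olfr160): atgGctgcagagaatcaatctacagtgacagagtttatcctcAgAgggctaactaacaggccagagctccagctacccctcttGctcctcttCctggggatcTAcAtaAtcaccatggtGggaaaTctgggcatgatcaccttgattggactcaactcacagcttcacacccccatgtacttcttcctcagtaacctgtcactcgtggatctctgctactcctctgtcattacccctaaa
MOR28 (Olfr1507): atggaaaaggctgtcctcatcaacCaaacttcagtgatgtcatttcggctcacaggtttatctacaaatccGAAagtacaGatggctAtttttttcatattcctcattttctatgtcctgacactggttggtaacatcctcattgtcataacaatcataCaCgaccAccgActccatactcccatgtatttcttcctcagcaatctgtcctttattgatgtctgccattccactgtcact
MOR10 (Olfr1508): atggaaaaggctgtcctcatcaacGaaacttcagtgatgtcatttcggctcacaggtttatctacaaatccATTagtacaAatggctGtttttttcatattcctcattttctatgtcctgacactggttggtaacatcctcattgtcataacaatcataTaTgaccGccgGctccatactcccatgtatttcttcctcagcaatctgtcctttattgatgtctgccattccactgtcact

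Most of the transcript sequence of each relative is nevertheless its own. Of all stretches of 100 bases in the annotated exons, 12.15% in M71, 3.58% in M72, 1.445% in MOR28 and 0.7602% in MOR10 were found unchanged elsewhere among annotated transcripts. For Olfr78 the share was 12.8%, all of it with the overlapping receptor gene Olfr560 on the same strand. Of stretches of 50 bases the shares were 32.9% in M71, 10.2% in M72, 6.09% in MOR28, 3.02% in MOR10 and 14.2% in Olfr78. These are shares of sequence, and the part of the counts that such stretches affect was not measured. In the GENCODE annotation M71 is a polymorphic pseudogene: in the reference sequence its longest open frame holds 258 codons, against 309 in M72.

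The upstream sequence of MOR10 is shown because it is the receptor for which the RefSeq start lies within 34 bases of the GENCODE start. The window is mm10 (GRCm38.p6) chr14:52467496-52467711, minus strand, upstream of the annotated start. Capitals mark the 3 matches to a homeodomain core (TAATNA or TAATNG, either strand), the kind of sequence bound by Lhx2 and Emx2.
MOR10 (Olfr1508) promoter: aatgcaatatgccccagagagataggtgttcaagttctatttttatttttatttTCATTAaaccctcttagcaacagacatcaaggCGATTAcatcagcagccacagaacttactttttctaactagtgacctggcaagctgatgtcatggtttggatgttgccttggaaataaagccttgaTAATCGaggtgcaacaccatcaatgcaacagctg

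Such a core was present in 73.95% of the RefSeq promoter windows of odorant receptor genes and in 33.13% of all windows of the same length. No match to the core used by Ebf factors (CCCNNGGG, CCCNNGGA or TCCNNGGG, either strand) was found in this window, and 6.962% of receptor windows and 22.86% of all windows hold one. A match or its absence describes the letters of the window and not the binding of a factor.

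The 9 genes lie on 5 chromosomes (mm10, GENCODE). P2 is at chromosome 7, 107093220 to 107099808, plus strand, and I7 is in the same cluster at 106995399 to 107006072, minus strand. Olfr78 is also on chromosome 7, at 102738511 to 102759471, minus strand. M71 is at chromosome 9, 37729977 to 37731104, and M72 at 37708964 to 37716250, both on the minus strand. MOR28 is at chromosome 14, 52488791 to 52495749, and MOR10 at 52458829 to 52467495, both on the minus strand. MOR23 is at chromosome 1, 172950409 to 172958357, plus strand, and mOR-EG at chromosome 2, 88032288 to 88037699, minus strand.

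Read counts set what can be seen for each receptor. Gene counts per library ranged from 1.31 M to 8.79 M with a median of 4.28 M, and 8.95% to 47.2% of reads were assigned to genes. Odorant receptors took 0.0490% to 0.577% of gene counts, and the 9 genes together 0.827% to 2.63% of the receptor counts (29 to 1012 reads a library). The marker genes of mature sensory neurons were abundant in all libraries, at a summed 914.5 to 9874 CPM (gene counts scaled to a common library total, with TMM factors). Fzd1 fitted the labels in most libraries: without DOX control libraries held 20.9 to 44.3 CPM, Fzd1lacZ libraries 3.48 to 20.3 CPM and 13 of the 14 ectopicFzd1 libraries 205 to 2122 CPM. The library labelled ectopicFzd1 P3 replicate 3 had 43.0 CPM and the library labelled control DOX P7 replicate 1 had 3.45 CPM, so both went against their labels. Omp changed unevenly with age in control libraries without DOX. In CPM without TMM factors it was at 192 to 300 at P0, 29.3 and 30.2 at P3 and 30.0 and 30.9 at P7. It was at 46.8 to 52.4 at P10 and 1326 to 1553 at P14. The part of this Omp pattern in the receptor values was not tested. Titles of all 3 ectopicFzd1 libraries with DOX at P3 share 1 ID, and another ID is shared by ectopicFzd1 DOX P10 replicate 3 and ectopicFzd1 DOX P14 replicate 1, so these may not be separate animals. A family of 13 repeat-like genes around Gm10800 took 0.0540% to 73.8% of gene counts and over 25% in 8 libraries.

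MOR28 was the most abundant of the 9 and M71 the least. Over all libraries MOR28 had a median of 63.5 reads (5 to 541) and ranked the third by count and the second by TPM among the 1407 receptor genes. MOR10 had a median of 41.5 reads (3 to 244), Olfr78 21.5 (7 to 46), P2 17.5 (2 to 68), I7 14 (0 to 31), MOR23 9.5 (1 to 56), mOR-EG 8 (1 to 52) and M72 5 (0 to 21). M71 had a median of 2 reads (0 to 6) and none in 13 libraries, so it did not pass the filter on low counts and could not be tested. The other 8 genes passed.

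Levels between genes are compared per length, in TPM. In the 13 control libraries without DOX, MOR28 was at 4.46 ± 2.35 TPM (SD, n = 13), with the SD including differences between ages. The next 5 could not be ordered beyond their spread: MOR10 was at 1.17 ± 0.756, Olfr78 at 0.939 ± 0.367, mOR-EG at 0.921 ± 0.688, I7 at 0.919 ± 0.585 and P2 at 0.905 ± 0.438 TPM. Below them were MOR23 at 0.620 ± 0.298, M72 at 0.407 ± 0.230 and M71 at 0.278 ± 0.259 TPM, with ranges that overlapped those of their neighbours in the order. The annotated exons of MOR10 cover 5791 bases and those of MOR28 2877, and MOR10 ranked 11 by count and 109 by TPM among receptors.

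**Figure D1:**
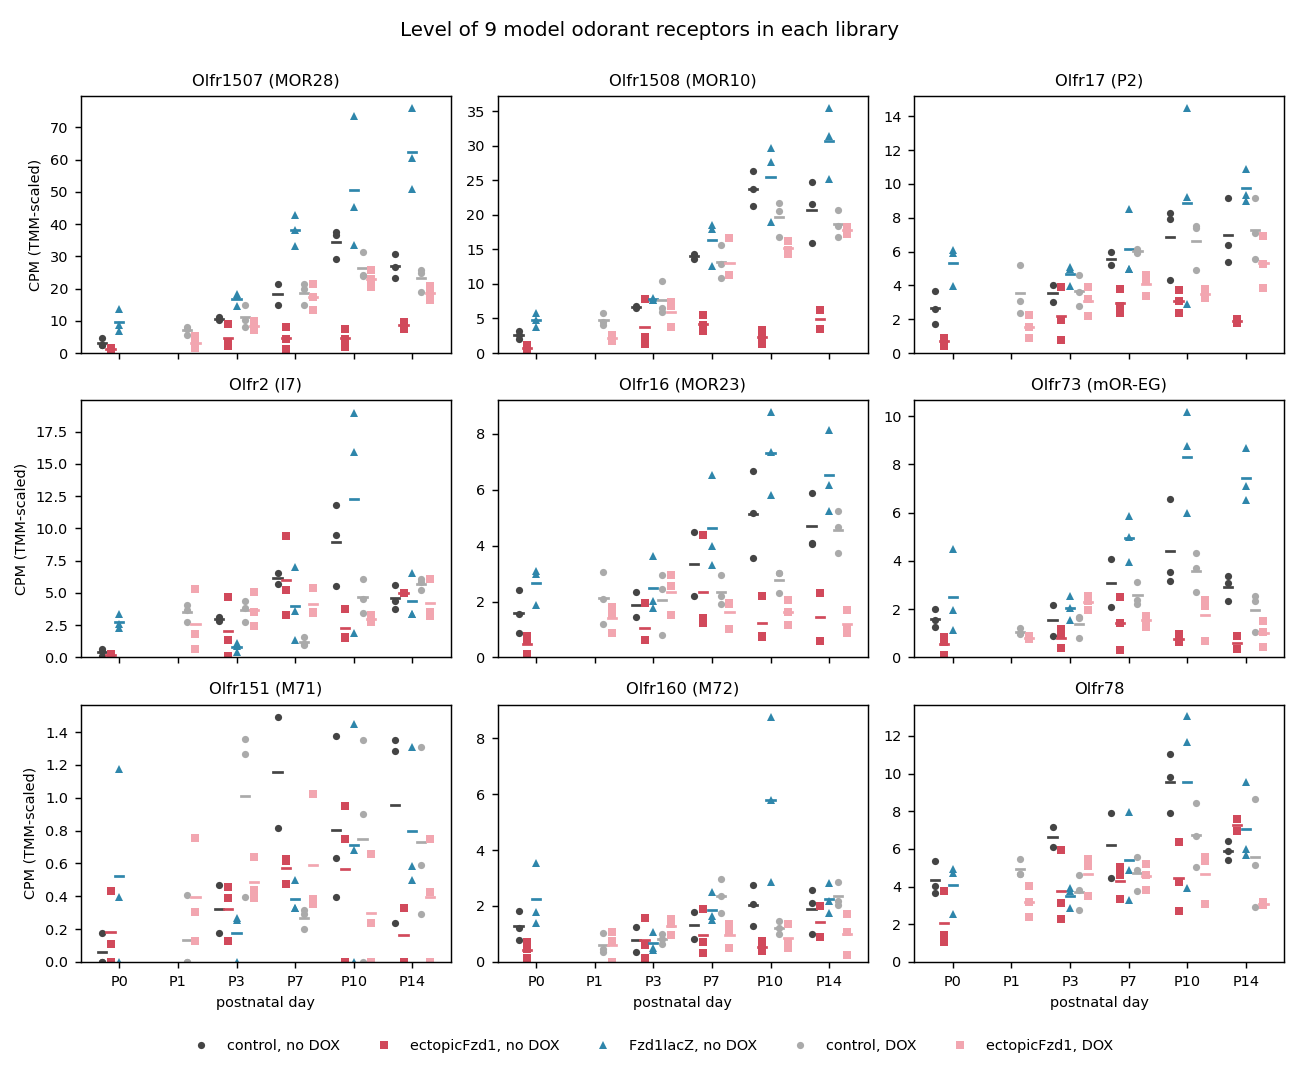
Level of each receptor in CPM (TMM-scaled, linear axis from 0, a different scale in each panel) against postnatal day, 1 symbol per library and a bar at the group mean. MOR28 and MOR10 libraries of ectopicFzd1 without DOX (red squares) lie low at every age, and Fzd1lacZ libraries (blue triangles) of MOR28 reach 76.0 CPM at P14.

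Ectopic Fzd1 went with lower levels of nearly all of these receptors. The first comparison set ectopicFzd1 against control without DOX, as the mean log2 fold change over the 5 ages, and tests used edgeR's quasi-likelihood test with p-values adjusted over all 22144 genes tested. Of the 8 receptors tested, 7 fell and none rose, while 6.52% of all genes tested were called lower and 2.67% higher. The fall was shared by the receptor family: 765 of 978 receptors tested were lower, the median log2 fold change of the 978 was -1.28, and that of the 8 was -1.40. Averaged over ages, receptors took 0.136% of counts in the ectopic line against 0.333% for control (exact permutation within age, 2-sided, p = 5e-06, lower at 5 of 5 ages). In bulk tissue, fewer neurons that express a receptor and less RNA per neuron cannot be told apart.

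MOR28, the class II receptor best known from transgenic studies of receptor choice, had lower values at every age. At P0 its level was 1.57, 1.01 and 0.783 CPM in ectopicFzd1 and 2.40, 2.47 and 4.51 CPM in control. At P7 it was 8.16, 1.18 and 4.30 CPM against 21.5 and 14.9 CPM. At P10 it was 4.23, 1.90 and 7.46 CPM against 36.7, 29.3 and 37.5 CPM. At P3 the values were 3.19, 2.03 and 8.99 CPM against 11 and 10.4 CPM, where the highest belongs to the library with control-like Fzd1. At P14 they were 9.60 and 7.59 CPM against 30.8, 23.3 and 26.7 CPM. At each of the 5 ages every ectopicFzd1 library lay below every control library. Over the 5 ages MOR28 fell by 2.0 on the log2 scale (SE 0.18, edgeR adjusted p = 1.18e-12), to 25.1% of the control level.

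MOR10, the neighbour of MOR28, fell by 2.05 (SE 0.16, edgeR adjusted p = 5.97e-15), to 24.1%. At P10 it was at 2.31, 1.26 and 3.36 CPM in ectopicFzd1 against 26.3, 23.8 and 21.3 CPM in control, the widest gap of the 5 ages. At P0 it was at 0.671, 1.16 and 0.392 CPM against 1.98, 2.63 and 3.12 CPM. At P14 it was at 6.29 and 3.50 CPM against 21.6, 15.9 and 24.8 CPM. These groups stand apart, and so do those of P7, at 3.14, 4.03 and 5.52 CPM against 13.6 and 14.3 CPM. At P3 the groups overlapped, with 2.28, 1.27 and 7.82 CPM against 6.52 and 6.80 CPM, and the overlap was due to replicate 3, the library with control-like Fzd1. Without the 2 libraries that went against their label, the log2 fold change was -2.11 for MOR28 and -2.19 for MOR10. Only 67 of the 978 receptors tested had a lower log2 fold change than MOR28 and 53 a lower one than MOR10.

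The other 6 receptors fell less far or missed the threshold. The odorant receptor mOR-EG, which binds eugenol, fell by 1.72 (SE 0.25, edgeR adjusted p = 5.16e-07), from a median of 2.36 CPM (0.895 to 6.55) over the control libraries to 0.807 CPM (0.112 to 2.51) over the ectopicFzd1 libraries. Those ranges overlapped across ages, and at P0, P10 and P14 the 2 groups of an age did not. MOR23, a receptor for lyral, fell by 1.42 (SE 0.24, edgeR adjusted p = 1.39e-05). P2 fell by 1.39 (SE 0.19, edgeR adjusted p = 5.50e-08): at P14 it was at 1.99 and 1.75 CPM against 6.41, 5.40 and 9.20 CPM in control, and at P0 at 0.895, 0.867 and 0.392 CPM against 3.67, 2.63 and 1.74 CPM. Olfr78, which responds to short-chain fatty acids and is also found outside the nose, fell by 0.66 (SE 0.18, edgeR adjusted p = 0.00727), and its groups overlapped at P0 and P7. At P14 they stood the other way round, with 6.95 and 7.59 CPM in ectopicFzd1 against 5.90, 6.42 and 5.42 CPM in control. Without control P7 replicate 1 the Olfr78 call was lost (log2 fold change -0.57, adjusted p = 0.0593).

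M72 and I7 lay at the edge of what these libraries can call. M72 fell by 1.0 (SE 0.33, edgeR adjusted p = 0.0456), on a median of 5 reads a library. That call was lost in 17 of 27 refits that each left out 1 library, most of all without control P3 replicate 1 (-0.77, adjusted p = 0.270). It was also lost with no filter (-0.98, adjusted p = 0.136), with the groups compared alone (-1.01, adjusted p = 0.0528) and by limma on log2(TPM + 1) (-0.22, adjusted p = 0.0641) and log2(TPM + 0.1) (-0.76, adjusted p = 0.0738). I7, a receptor for aldehydes such as octanal, had a log2 fold change of -0.85 (SE 0.34, edgeR adjusted p = 0.108). Without ectopicFzd1 P3 replicate 3 it was called, at -1.07 (adjusted p = 0.0238), as it was without libraries over 25% Gm10800-type (-0.90, adjusted p = 0.0316), with no filter (-0.84, adjusted p = 0.0224) and by limma on log2(TPM + 1) (-0.45, adjusted p = 0.00790) and log2(TPM + 0.1) (-1.10, adjusted p = 0.0117). M71, which could not be tested, had a median of 0.412 CPM (0 to 0.948) in ectopicFzd1 and 0.466 CPM (0 to 1.49) in control, ranges that overlap.

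By single age, the receptors called differed, and the number of genes called at an age differed widely too. At P10 all of the 8 but M72 fell (4.71% of all genes were lower and 5.62% higher), MOR10 by 3.50 and MOR28 by 3.11. At P14 P2 (-1.91), MOR28 (-1.66) and MOR10 (-2.11) fell (1.45% of genes lower, 0.303% higher). At P7 MOR28 (-2.31) and MOR10 (-1.66) fell (0.637% lower, 0.0677% higher), and at P0 P2 (-1.87) and MOR10 (-1.78; 0.677% lower, 0.0768% higher). None was called at P3 (0.479% lower, 0.0903% higher), where MOR28 was at -1.50 (adjusted p = 0.0533). Of the 978 receptors tested, 504 were called lower at P10, 155 at P14, 67 at P7, 118 at P0 and 61 at P3. The F test for a difference among ages, adjusted over all genes (0.357% called), called none of the 8, with MOR10 nearest at adjusted p = 0.0598.

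Other measures moved with this fall, and the gene lists among them were chosen with earlier results of these data known. Omp, whose locus carries tTA in both genotypes, had a log2 fold change of -1.61 (edgeR adjusted p = 2.76e-10) over the 5 ages, -5.57 at P14 and 0.09 (adjusted p = 0.989) at P7, where MOR28 fell by 2.31. Of 16 markers of mature sensory neurons 15 were lower, with a median log2 fold change of -0.78, against -0.01 over all genes. Their summed level was 1296 to 3502 CPM (median 1886) in ectopicFzd1 and 1570 to 8035 CPM (median 3382) in control. Markers of immature neurons, at 1698 to 3605 CPM and 1373 to 2747 CPM, included 1 of 11 higher (Gng8, 0.34) and none lower. Of the markers of other cells, 2 of 8 of globose basal cells and the cell cycle, 1 of 9 of sustentacular cells and 2 of 4 of vomeronasal neurons were higher, and none of any other list was called. The part of these shifts in the receptor values was not tested. The titles carry ID series, which the genotypes share at P0, P3 and P10 and in part at P7, while at P14 series and genotype cannot be told apart. With the series as a covariate over P0 to P10, 4 of the 8 receptors remained called: MOR28 (-1.73), MOR10 (-2.09), P2 (-1.10) and mOR-EG (-1.31). Over the same ages without the covariate 6 were called.

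**Figure D2:**
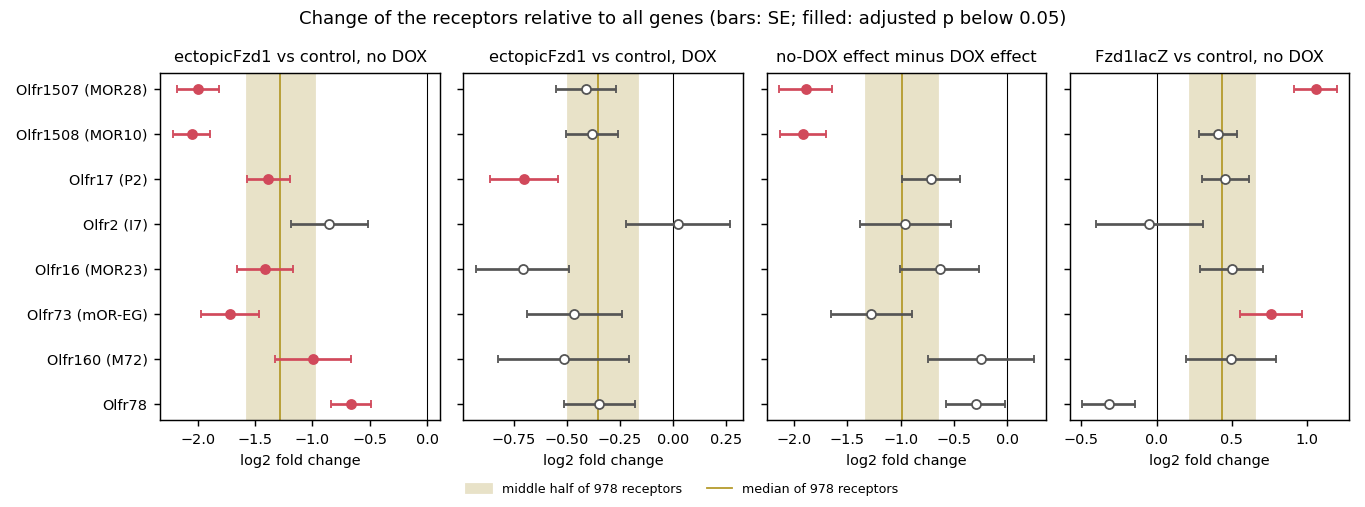
Log2 fold change with its standard error for the 8 receptors tested in 4 comparisons, filled red where the adjusted p was below 0.05, with the median (line) and the range between the lower and upper quartile (band) of the 978 receptors tested. MOR28 and MOR10 lie left of the band in the first and the third panel, at -2.0 and -2.05 and at -1.89 and -1.92, and MOR28 lies right of it in Fzd1lacZ, at 1.06.

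A second model asked how each receptor stood relative to the others, by fitting receptor genes alone with the total receptor count as library size and adjusting over the 978 receptors. Within that repertoire MOR28 (log2 fold change -0.72, SE 0.16, edgeR adjusted p = 3.98e-04) and MOR10 (-0.78, SE 0.16, edgeR adjusted p = 1.41e-04) still fell, as did 8.28% of the receptors tested. Olfr78 rose (0.62, SE 0.15, edgeR adjusted p = 0.00190), as did 6.03%. The remaining 5 were between -0.46 (mOR-EG) and 0.35 (I7), and none of them passed the test. Olfr78 thus fell against all genes and rose against the receptor total, with a log2 fold change of -0.66 beside the receptor median of -1.28.

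With DOX from birth, P2 was the one receptor of the 8 that was called. In ectopicFzd1 against control with DOX, averaged over P1 to P14, P2 fell by 0.70 (SE 0.16, edgeR adjusted p = 0.0119), while 0.312% of all genes were lower and 0.515% higher. Of the 978 receptors tested 34 were lower (median -0.35), and at P1 alone 115 were lower (median -0.66). MOR28 was at -0.41 (SE 0.14, adjusted p = 0.186) and MOR10 at -0.38 (SE 0.12, adjusted p = 0.152). For MOR28 at P10 the values were 25.7, 23.1 and 20.4 CPM in ectopicFzd1 and 31.3, 24.3 and 23.8 CPM in control, which overlap. At P14 they were 18.8, 20.8 and 16.4 CPM against 25.9, 19.1 and 24.8 CPM, which overlap as well. At P1, after 1 day of DOX, MOR10 was at 2.01, 2.63 and 1.81 CPM against 3.99, 4.48 and 5.72 CPM and was called lower (-1.08, edgeR adjusted p = 0.0265), as was P2 (-1.31, adjusted p = 0.0152; 6.11% of genes lower and 8.71% higher at P1). None of the 8 was called at P3 (0.131% lower, 0.0497% higher), P7 (0.370% lower, 0.199% higher), P10 (0.0226% lower, 0.0632% higher) or P14 (0.0903% lower, 0.108% higher). Without P1, an alternative chosen after seeing the data, P2 was at -0.55 (adjusted p = 0.203) and none of the 8 was called. By limma P2 was at -0.24 on log2(TPM + 1) (adjusted p = 0.723) and -0.50 on log2(TPM + 0.1), and none of the 8 was called either. With no filter MOR28 was called (-0.40, edgeR adjusted p = 0.0325). Without P3, MOR23 was called too (-0.93, adjusted p = 0.0248). Omp had a log2 fold change of -3.32 in this comparison (edgeR adjusted p = 3.46e-23) and of -0.09 at P3 alone. It was the 1 called of the 16 mature neuron markers (median -0.31), and Col2a1 of the cartilage markers was higher (0.57). The title ID series of the lines differ with DOX at all ages but P1, so after P1 series and genotype cannot be told apart. The receptor share of gene counts was 0.253% against 0.321% (exact permutation within age, 2-sided, p = 0.00229).

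The difference between the ectopic effect without DOX and that with DOX, over P3 to P14, was itself past the threshold for MOR28 and MOR10 (2.12% of all genes were lower and 0.271% higher). It was -1.89 (SE 0.25, edgeR adjusted p = 4.08e-07) for MOR28 and -1.92 (SE 0.22, edgeR adjusted p = 8.31e-09) for MOR10. The other 6 were between -1.27 (mOR-EG, adjusted p = 0.0581) and -0.25 (M72), with a median of -0.99 for all 978 receptors. The mOR-EG value was past the threshold in 6 of 45 refits without 1 library, each of ectopicFzd1 DOX P14 replicate 3 (-1.34), ectopicFzd1 P7 replicate 1 (-1.38), control P7 replicate 2 (-1.37), control P3 replicate 2 (-1.39), ectopicFzd1 P3 replicate 3 (-1.33) and ectopicFzd1 DOX P10 replicate 3 (-1.37). It was also past it without the 2 libraries that went against their label (-1.37, adjusted p = 0.0345) and without those over 25% Gm10800-type (-1.48, adjusted p = 0.0212). Of the 16 mature neuron markers 7 were lower and 1, Omp, higher in this difference (median -0.59), and their part in it was not tested. Within the repertoire the difference was -0.88 for MOR28 (edgeR adjusted p = 0.00409) and -0.90 for MOR10 (edgeR adjusted p = 0.00269), with 3.07% of receptors lower, and 0.72 for Olfr78 (adjusted p = 0.0593).

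Within the ectopicFzd1 line, libraries with the transgene on had less MOR28 and MOR10 than those with it off. Over P3 to P14 the log2 fold change of no DOX against DOX was -1.76 (SE 0.19, edgeR adjusted p = 4.62e-10) for MOR28 and -1.83 (SE 0.17, edgeR adjusted p = 2.53e-12) for MOR10, with 5.47% of all genes lower. P2 (-0.74, adjusted p = 0.0148) and mOR-EG (-0.95, adjusted p = 0.0371) fell too. Of the 978 receptors tested 391 (40.0%) were lower, and the median log2 fold change of the 978 was -0.80. Among the 978, 539 had a lower log2 fold change than P2 and 363 a lower one than mOR-EG. The mOR-EG call was lost in 11 of 23 refits without 1 library, as far as -0.82 without ectopicFzd1 P7 replicate 3 (adjusted p = 0.0900), and the P2 call without ectopicFzd1 P14 replicate 2 (adjusted p = 0.0518) or P3 replicate 2 (adjusted p = 0.0585). Without P3 both calls were lost, P2 at -0.74 (adjusted p = 0.0720) and mOR-EG at -0.73 (adjusted p = 0.361). The mOR-EG call was lost as well with no filter (-0.94, adjusted p = 0.149), with the groups compared alone (-0.94, adjusted p = 0.0932) and by limma on log2(TPM + 1) (-0.29, adjusted p = 0.105). The lists of mature neuron markers and of receptor signalling and axon sorting share Adcy3, Gnal and Cnga2. Other genes moved alongside: 14 of the 16 mature neuron markers were lower (median -0.65), 11 of the 24 genes of receptor signalling and axon sorting were lower and 1 higher, and 3 of the 8 markers of globose basal cells and the cell cycle were higher, beside 2.03% of all genes higher. Their part in the receptor values was not tested. At P10 the MOR10 values with DOX were 14.4, 14.9 and 16.2 CPM, against the 2.31, 1.26 and 3.36 CPM without it. Within the repertoire MOR28 (-0.95) and MOR10 (-1.01) fell and Olfr78 rose (0.99, edgeR adjusted p = 4.73e-06), where 5.21% of receptors fell and 2.97% rose.

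No receptor of the 8 passed the threshold for DOX alone. In control mice, DOX against none over P3 to P14 gave 0 of 8 calls with edgeR, where 0.578% of all genes were higher and 0.289% lower, and 2 of the 8, I7 (-0.68) and Olfr78 (-0.45), had an unadjusted p below 0.05. MOR28 was at -0.13 (SE 0.15) and MOR10 at -0.08 (SE 0.13). DESeq2 called none either, and a fit on the compared groups alone called I7 (adjusted p = 0.0147). The title ID series of these control libraries differ between DOX and none at all ages but P14. Below P14 series and DOX therefore cannot be told apart. Averaged over P3 to P14, Omp was higher with DOX in these control libraries, by 2.07 (edgeR adjusted p = 5.30e-11). At P7 it was at 412 to 673 CPM with DOX against 30.0 and 30.1 CPM without. At P10 it was at 865 to 890 CPM against 46.9 to 61.1 CPM. The groups overlapped at P3 (23.8 to 36.2 against 27.8 and 27.9 CPM) and at P14 (1072 to 1444 against 1329 to 1514 CPM). The part of the Omp shift in the receptor values was not tested.

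**Figure D3:**
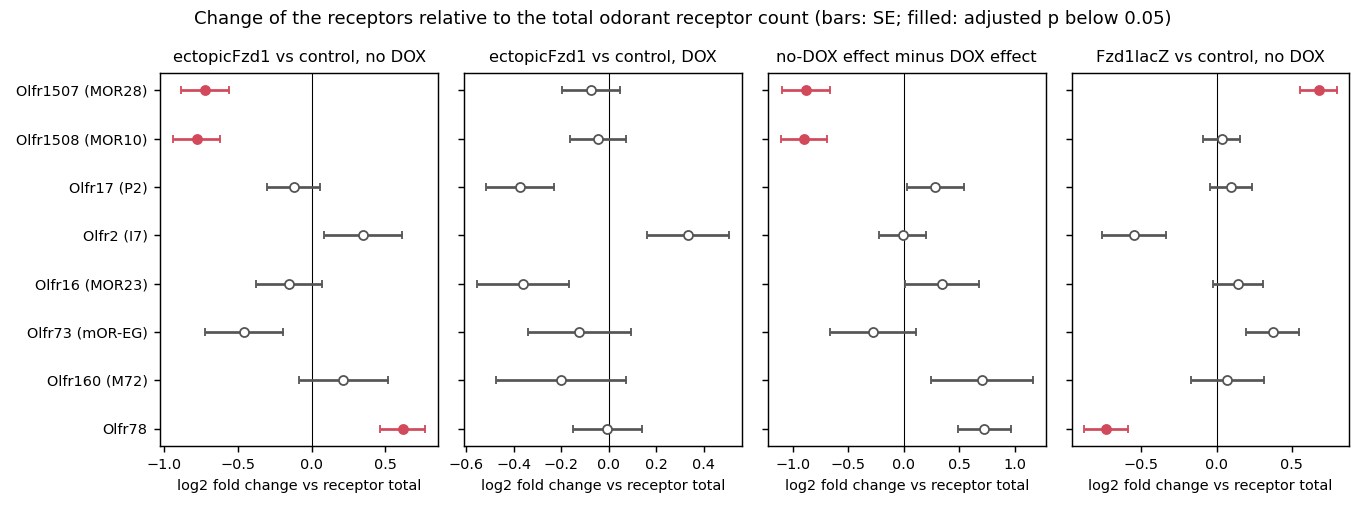
Log2 fold change relative to the total odorant receptor count, with its standard error, for the 8 receptors in the same 4 comparisons, filled red where the adjusted p over 978 receptors was below 0.05. MOR28 and MOR10 stood at -0.72 and -0.78 under ectopic Fzd1 and at 0.68 and 0.03 in Fzd1lacZ, and Olfr78 stood at 0.62 and -0.73.

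In Fzd1lacZ mice MOR28 and mOR-EG were higher than in control. These libraries were compared with the same control libraries as ectopicFzd1 without DOX, so the values of both comparisons are given side by side and not correlated. MOR28 rose by 1.06 (SE 0.14, edgeR adjusted p = 2.85e-07), to 2.08 times the control level, and mOR-EG by 0.76 (SE 0.20, edgeR adjusted p = 0.0239), to 1.69 times. In this comparison 1.43% of all genes and 121 of 978 receptors were called higher, and the median of the 978 was 0.43. The others were P2 at 0.46 (adjusted p = 0.103), MOR23 at 0.50 (adjusted p = 0.218), M72 at 0.50 (adjusted p = 0.471), MOR10 at 0.41 (adjusted p = 0.0650), I7 at -0.05 (adjusted p = 0.992) and Olfr78 at -0.32 (adjusted p = 0.397). The last 2 depended on the setting. Without the libraries over 25% Gm10800-type, Olfr78 was called lower (-0.65, edgeR adjusted p = 0.0139) and I7 was at -0.75 (adjusted p = 0.0781). On TPM, limma called both lower, I7 at -0.39 on log2(TPM + 1) (adjusted p = 0.0184) and -0.86 on log2(TPM + 0.1) (adjusted p = 0.0280), and Olfr78 at -0.27 (adjusted p = 0.0227) and -0.56 (adjusted p = 0.0255).

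The MOR28 values lay above control at all ages but overlapped at P10. At P0 they were 13.6, 6.83 and 8.72 CPM in Fzd1lacZ against 2.40, 2.47 and 4.51 CPM in control. At P3 they were 18.3, 17.6 and 14.7 CPM against 11 and 10.4 CPM, and at P7 33.3, 42.9 and 38.2 CPM against 21.5 and 14.9 CPM. At P10 they were 33.4, 73.4 and 45.3 CPM against 36.7, 29.3 and 37.5 CPM. The first and the last of these 3 P10 libraries held 23 and 31 MOR28 reads, the other 541. At P14 they were 60.5, 76.0 and 50.9 CPM against 30.8, 23.3 and 26.7 CPM. At single ages MOR28 was called at P0 (1.68, edgeR adjusted p = 0.00592; 4.40% of genes higher and 3.33% lower) and at P14 (1.21, edgeR adjusted p = 0.00764; 0.384% higher, 0.330% lower). It was not called at P3 (0.65; 0.614% higher, 0.465% lower), P7 (1.04; 0.0587% higher, 0.0271% lower) or P10 (0.71; 0.104% higher, 0.181% lower). Of the 978 receptors tested, 199 were called higher at P0, where their median log2 fold change was 1.08. At P14 6 of the 978 were called higher (median 0.35), and the median was -0.04 at P3, 0.07 at P7 and 0.60 at P10.

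The mOR-EG values overlapped more. They were 6.53, 7.12 and 8.68 CPM at P14 in Fzd1lacZ against 3.08, 3.38 and 2.36 CPM in control, which stand apart, and 1.98, 4.47 and 1.12 CPM against 1.27, 2.01 and 1.56 CPM at P0, which do not. Its call was lost without control P7 replicate 2 (0.68, adjusted p = 0.0759), control P3 replicate 2 (0.67, adjusted p = 0.0941) or Fzd1lacZ P0 replicate 2 (0.63, adjusted p = 0.0978). It was also lost with no filter on low counts (0.75, adjusted p = 0.0602) and by limma on log2(TPM + 1) (0.28, adjusted p = 0.0647) and log2(TPM + 0.1) (0.52, adjusted p = 0.127). MOR10 was called by DESeq2 (0.43, adjusted p = 0.0465), with the groups compared alone (0.41, adjusted p = 0.0254), without the 2 libraries that went against their label (0.41, adjusted p = 0.0225) and without Fzd1lacZ P7 replicate 1 (0.45, adjusted p = 0.0362), P10 replicate 1 (0.43, adjusted p = 0.0498) or P10 replicate 3 (0.46, adjusted p = 0.0315), and P2 without Fzd1lacZ P10 replicate 3 (0.53, adjusted p = 0.0401). The 2 libraries against their label are in neither group compared here, so leaving them out acts only through the fit shared by all groups. On TPM, limma gave MOR10 -0.04 on log2(TPM + 1) and -0.05 on log2(TPM + 0.1).

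Relative to the receptor total, MOR28 rose in Fzd1lacZ by 0.68 (SE 0.12, edgeR adjusted p = 1.45e-05; 6.24% of receptors rose), and Olfr78 fell by 0.73 (SE 0.15, edgeR adjusted p = 1.12e-04; 4.19% fell). MOR10 was at 0.03 (SE 0.12, adjusted p = 0.903). I7 was at -0.55 (adjusted p = 0.0818) and was called without control P0 replicate 1 (-0.68), Fzd1lacZ P7 replicate 2 (-0.63), P10 replicate 1 (-0.63) or P10 replicate 3 (-0.67). The receptor share of gene counts was 0.383% against 0.333% in control (exact permutation within age, 2-sided, p = 0.0629, lower at 3 of 5 ages and higher at 2), a difference of 0.049 percentage points. Taken of gene counts without the Gm10800-type family, the difference was 0.163 percentage points (exact permutation p = 0.00421), and as a share of summed TPM 0.0047 (exact permutation p = 0.560). It was past the threshold in 5 of the 28 tests without 1 library, at most 0.066 without Fzd1lacZ P10 replicate 3 (exact permutation p = 0.00545). Omp stood at 3.40 in this comparison (edgeR adjusted p = 2.80e-22), with 27.8 to 61.1 CPM in control at P3, P7 and P10, and no other marker of mature neurons was called. Markers of other tissues moved in the same comparison: 3 of 8 of glands and respiratory epithelium were lower (median -0.57), the odorant-binding protein genes Obp2a and Obp2b and the lipocalin gene Lcn3, as were 2 of 5 of horizontal basal cells (median -0.35) and 1 of 9 of sustentacular cells, while of 5 of cartilage 2 were higher and 1 lower (median 0.20). Their part in the receptor values was not tested. The title ID series of Fzd1lacZ and control libraries differed at all ages but P14, so below P14 the series and the genotype cannot be told apart.

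The ratio of MOR28 to MOR10 counts within each library, which needs no scaling, was higher in Fzd1lacZ than in control. The ratio was chosen for testing after the values were seen, and 3 comparisons were made. It was 2.07 in Fzd1lacZ and 1.35 in control as geometric means over ages, a log2 difference of 0.61, higher at 5 of 5 ages (exact permutation within age, 2-sided, p = 1.88e-05, adjusted over the 3 comparisons p = 5.63e-05). Leaving out each of the 28 libraries in turn gave 0.55 to 0.68, and TPM values gave 0.55. Over libraries the ratio ran from 1.21 to 2.63 (median 2.14) in Fzd1lacZ and from 0.943 to 1.75 (median 1.43) in control. Under ectopic Fzd1 without DOX it was 1.41 against 1.35 (exact permutation p = 0.818), and with DOX 1.32 against 1.38 (exact permutation p = 0.687).

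**Figure D4:**
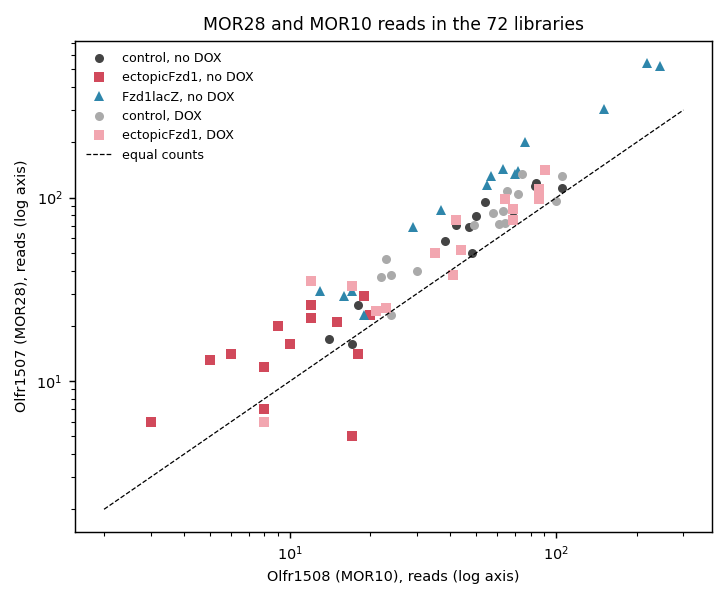
Reads of MOR28 against reads of MOR10 in each of the 72 libraries, both on log axes, with the line of equal counts. Fzd1lacZ libraries (blue triangles) all lie above the line at ratios of 1.21 to 2.63, and ectopicFzd1 libraries without DOX (red squares) lie at the low end, with as few as 3 MOR10 reads.

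At P14 the receptors were more abundant than at P0. The title ID series differ between these ages in each genotype without DOX, so series and age cannot be told apart. Over the 3 genotypes without DOX, 7 of the 8 rose from P0 to P14, where 31.6% of all genes and 840 of 978 receptors rose. MOR28 (2.89, SE 0.23), I7 (2.87, SE 0.42) and MOR10 (2.80, SE 0.22) rose most, MOR23 by 1.42, P2 by 1.19, Olfr78 by 0.99 and mOR-EG by 0.88, all with edgeR adjusted p of 0.0271 or less. M72 was at 0.75 (adjusted p = 0.0816). On TPM, limma called 3 of the 8, MOR28, MOR10 and I7. There MOR23 was at 0.16 on log2(TPM + 1) and 0.44 on log2(TPM + 0.1), P2 at 0.14 and 0.40, Olfr78 at 0.07 and 0.20 and mOR-EG at 0.27 and 0.52, with adjusted p of 0.118 or more. In control, MOR28 went from 2.40, 2.47 and 4.51 CPM at P0 to 30.8, 23.3 and 26.7 CPM at P14, and I7 from 0.141, 0.464 and 0.694 CPM to 5.64, 4.39 and 3.77 CPM. The Gm10800-type share of gene counts in control was 0.0540% to 0.678% at P0 and 7.36% to 15.2% at P14. In ectopicFzd1 it was 0.116% to 0.438% at P0 and 13.2% and 20.6% at P14. In Fzd1lacZ it was 9.28% to 13.4% at P0 and 5.03% to 34.2% at P14. The part of that share in the I7 rise was not tested. Olfr78 was at 3.67, 4.02 and 5.38 CPM at P0 and 5.90, 6.42 and 5.42 CPM at P14 in control, which was not called by itself (0.44, adjusted p = 0.317; 23.5% of genes rose there). MOR23 lost its call without ectopicFzd1 P14 replicate 1 (1.01, adjusted p = 0.0642), and mOR-EG without ectopicFzd1 P14 replicate 2 (0.59, adjusted p = 0.411) or P0 replicate 1 (0.70, adjusted p = 0.0697) and with no filter (0.83, adjusted p = 0.101). M72 was called with the groups compared alone (0.81, adjusted p = 0.0491) and without Fzd1lacZ P0 replicate 2 or ectopicFzd1 P0 replicate 2 (0.91 in both). The makeup of the tissue moved with age too: 15 of 16 markers of mature neurons (median 1.33), 10 of 11 of immature neurons and 6 of 9 of sustentacular cells (median 1.03) were higher, while all 5 of horizontal basal cells (median -0.68), all 5 of cartilage (median -0.59) and 2 of 5 of red blood cells were lower, beside 27.2% of all genes lower. Their part in the receptor values was not tested.

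Between P1 and P14 with DOX, 4 of the 8 rose, MOR10 by 2.50, MOR28 by 2.08, P2 by 1.41 and M72 by 1.31, where 21.8% of all genes and 605 of 978 receptors rose. The title ID series was the same at both ages in control and differed in ectopicFzd1. All 16 mature neuron markers (median 1.82) and 6 of 9 of sustentacular cells were higher. All 5 of cartilage (median -3.39), of macrophages (median -1.03) and of red blood cells (median -1.24) and 4 of 5 of horizontal basal cells were lower, beside 26.6% of all genes. The M72 call was lost without ectopicFzd1 DOX P14 replicate 2 (1.24) or replicate 3 (1.08), DOX P1 replicate 2 (0.97) or control DOX P1 replicate 1 (1.15), with no filter (1.28, adjusted p = 0.0799), with the groups compared alone (1.37, adjusted p = 0.0646), without libraries over 25% Gm10800-type (1.13, adjusted p = 0.0707) and by limma, which gave 0.12 and 0.52 on its 2 TPM scales. The P2 call was lost by limma too, at 0.14 on log2(TPM + 1) (adjusted p = 0.499) and 0.38 on log2(TPM + 0.1) (adjusted p = 0.368), and I7 was called without ectopicFzd1 DOX P1 replicate 1 (1.24, adjusted p = 0.0127) or with no filter (0.76, adjusted p = 0.0442). Olfr78, not called by edgeR, was called lower by limma, at -0.29 (adjusted p = 0.0384) and -0.62 (adjusted p = 0.0476) on the same scales. Relative to the receptor total, P14 against P0 was 1.40 for I7, 1.36 for MOR28 and 1.27 for MOR10 (14.6% of receptors rose) and -0.54 for Olfr78 (12.9% fell). The Olfr78 call was lost in 5 of 17 refits without 1 library, as far as -0.36 without ectopicFzd1 P0 replicate 2. With DOX, P14 against P1 was 1.33 for MOR10 and 0.92 for MOR28 (10.1% rose) and -1.07 for Olfr78 (8.28% fell).

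I7 stood apart from the other receptors in how it varied between libraries. For correlations with the Gm10800-type share, CPM were taken without TMM factors, while the medians below are TMM-scaled. The log2 level of I7 followed the Gm10800-type share of gene counts over the 72 libraries with a Pearson correlation of 0.87, the highest of 977 receptors compared, whose median was 0.40. The receptor next to it was Olfr1307 at 0.85, and the other members tested lay between 0.24 and 0.46. In the 12 libraries with a share of 1% or less, I7 had a median of 0.546 CPM. That median was 3.10 CPM in the 29 libraries with 1% to 10%, 4.97 CPM in the 23 with 10% to 25% and 8.2 CPM in the 8 above 25%. For P2 the corresponding medians were 3.15, 3.83, 4.62 and 5.95 CPM. Both axes share the library and its total, and the correlation describes these libraries. The annotated exons of I7 share no stretch of 100 bases with another annotated transcript, and 1.08% of stretches of 50.

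**Figure D5:**
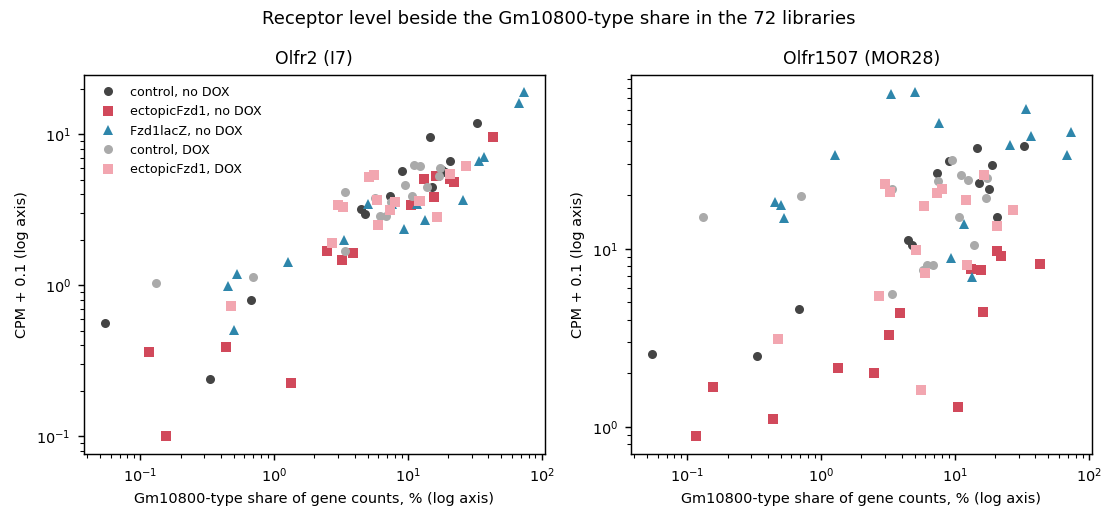
Level of I7 (left) and MOR28 (right) in CPM plus 0.1 against the percent of gene counts in the 13 Gm10800-type genes, 1 symbol per library, all axes logarithmic. The median of I7 goes from 0.546 CPM at a share of 1% or less to 8.2 CPM above 25%. On log scales, the correlation with the share is 0.87 for I7 and 0.44 for MOR28. It was computed on CPM without TMM factors, while the plotted levels and the medians are TMM-scaled.

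The Fzd1lacZ effect on I7 differed among ages (F test, edgeR adjusted p = 0.0443, where 2.77% of all genes were called). At P0 I7 rose by 2.65 (SE 0.75, edgeR adjusted p = 0.0264), with 3.36, 2.59 and 2.25 CPM against 0.141, 0.464 and 0.694 CPM in control. The Gm10800-type share at that age ran from 9.28% to 13.4% in the Fzd1lacZ libraries and from 0.0540% to 0.678% in those of control. At P3 it was at -1.85 (adjusted p = 0.181), with 0.888, 0.403 and 1.10 CPM against 3.10 and 2.86 CPM, and the share was 0.455% to 0.525% against 4.47% and 4.76%. At P10 I7 was 16.0, 1.90 and 19.0 CPM, where the Gm10800-type share was 68.3% and 73.8% in the libraries with the high values and 3.32% in the other. The part of that share in the I7 values was not tested.

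Receptors next to the 9 fell under ectopic Fzd1 about as often as receptors in general. Within 50 kb of a member, 19 other receptors were tested and 14 of them (73.7%) were called lower, beside 78.2% of all 978. Within 50 kb of MOR28 and MOR10, Olfr1509 fell by 1.73 and Olfr1510 by 2.06, and both were also lower in the DOX difference, as were 6 of the 19 (31.6%) beside 26.7% of all 978. Of the neighbours of P2, Olfr716 (-1.48), Olfr715 (-1.45) and Olfr714 (-0.95) fell and Olfr715b (-0.95, adjusted p = 0.104) was not called. The other neighbours not called were Olfr558 (-0.62, adjusted p = 0.0541) and Olfr559 (-1.02, adjusted p = 0.142) beside Olfr78, Olfr1163 (-0.69, adjusted p = 0.404) beside mOR-EG and Olfr875 (-0.89, adjusted p = 0.0749) beside M71. Near I7, which was not called itself, Olfr6 fell by 2.11, Olfr711 by 1.95 and Olfr713 by 0.83, and the fall of Olfr6 also held within the repertoire (-0.84, edgeR adjusted p = 6.72e-05). Around Olfr78, Olfr33 (-1.87), Olfr557 (-1.35) and Olfr561 (-1.30) fell, and next to mOR-EG Olfr1162 (-1.09) and Olfr1160 (-1.08) fell. Beside M71 and M72, Olfr874 fell by 1.06. In Fzd1lacZ 5 of the 19 (26.3%) were called higher, beside 12.4% of all 978 receptors. They were Olfr715 (1.19), Olfr715b (1.07) and Olfr714 (0.89) beside P2, Olfr1160 (0.81) beside mOR-EG and Olfr713 (0.76) beside I7. Olfr1509 (0.49, adjusted p = 0.251) and Olfr1510 (0.47, adjusted p = 0.287) were not called there, while MOR28 in the same cluster was.

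The genes whose levels most resembled those of a member over the 25 group means of log2 CPM were nearly all odorant receptors. For MOR28 they were Olfr726 (Pearson r 0.99), Olfr727 (0.98) and Olfr741 (0.98), and for MOR10 Olfr727 (0.98), Olfr729 (0.97) and Olfr741 (0.97). MOR28 and MOR10 themselves correlated at 0.97. P2 was most like Olfr1110, Olfr1389 and Olfr67 (0.95 to 0.96), MOR23 most like Olfr152, Olfr358 and Olfr1 (0.93 to 0.94), and mOR-EG most like Olfr490, Olfr376 and Olfr364-ps1 (0.93 to 0.95). M72 was most like Olfr558, Olfr633 and Olfr824 (0.86 to 0.87) and Olfr78 most like Olfr605, Olfr549 and Olfr954 (0.83 to 0.84). The exception was I7, whose nearest genes were Hoxa9 (0.97), C130073E24Rik (0.96) and Gm10720 (0.96). These points share genotype, age and the libraries' composition, so the values are descriptions.

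Under ectopic Fzd1, 11 of 24 genes of receptor signalling and axon sorting and 3 of 18 genes of receptor choice fell as well. Some of these listed genes are also in the marker lists: Adcy3, Gnal, Cnga2, Ric8b and Rtp1 of mature neurons and Gnas of immature neurons. Of the 18 genes of receptor choice and trafficking, which include the homeodomain factor genes Lhx2 and Emx2 and the receptor transport genes Rtp1 and Rtp2, 3 fell under ectopic Fzd1 and none rose, with a median log2 fold change of -0.13 beside -0.01 over all genes, of which 6.52% were called lower and 2.67% higher. They were Ric8b, which assists the olfactory G protein (-0.65), the transcription factor Ebf4 (-0.38) and Rtp2 (-0.30). Of the 24 genes of receptor signalling and axon sorting, 11 fell and 1 rose, with a median of -0.19. The falls with the smallest p were the adhesion gene Kirrel2 (-1.80), the adenylyl cyclase Adcy3 (-1.05) and the semaphorin receptor gene Plxna3 (-0.60). In the DOX difference 5 of the 24 were lower, Kirrel2 among them (-1.43), and 1 of the 18 was higher (Ddit3, a stress-response transcription factor gene, 0.62), where 2.12% of all genes were lower and 0.271% higher. With DOX Kirrel2 was lower by 0.61 and Sema3f higher by 0.33, where 0.312% of all genes were lower and 0.515% higher. In Fzd1lacZ, where MOR28 rose, none of the 18 and none of the 24 was called, beside 1.43% of all genes higher and 1.42% lower.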

How the data were processed

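Total RNA of olfactory epithelium was sequenced after ribosomal RNA depletion, per the labels' protocols. The authors deposited gene counts and length-corrected TPM values; the submitters' processing notes name bcl2fastq 2.18, STAR 2.6.1c, RSEM and the mouse build mm10, and the annotation and strand setting are not given in the sources used here. The deposited counts were whole numbers and were used as they stand, while the deposited TPM values served for levels between genes and for an alternative fit. The 9 receptors and all gene lists were chosen with earlier results of these data known.

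Counts of 72 libraries were fitted with edgeR 4.0.16 (R 4.3.3) by the quasi-likelihood test, with filterByExpr, TMM scaling and 1 term per group. Log2 fold changes are means over ages, p-values were Benjamini-Hochberg adjusted over 22144 genes, and a gene was called at an adjusted p below 0.05. The receptor model used 978 receptor genes and the total receptor count as library size. Shares and ratios (0.5 added to each count) were tested by exact permutation within age. The code was tested on simulated data. Alternatives used DESeq2 1.42.0, limma 3.58.1 on log2(TPM + 1) and log2(TPM + 0.1), other filters, fewer libraries and a covariate. Named genes are the 9 receptors, their neighbours within 50 kb, the 3 genes most like each by correlation, Fzd1 and Omp, and up to 3 called genes per list with the smallest p. Gene positions and coding sequences follow GENCODE on mm10, and promoters RefSeq on GRCm38.p6. Python 3.11.15, NumPy 2.4.6 and pandas 2.3.3 made the tables.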

Additional observations from a re-analysis of the deposited data

Results flagged for a closer look

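The ectopic Fzd1 effect on MOR28 (Olfr1507) differed between mice without and with DOX by -1.89 on the log2 scale, tested as an interaction in edgeR. The corresponding difference for MOR10 (Olfr1508) was -1.92. The effect of Fzd1lacZ on I7 (Olfr2) differed among the 5 ages in edgeR's F test (adjusted p = 0.0443), with log2 fold changes of 2.65 at birth, -1.85, -0.83 and -0.05 at the ages between, in order, and -0.16 at the oldest.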

How the results depend on the processing

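Of 641 receptor values under alternatives other than leaving out 1 library, 557 kept their direction and side of the threshold, 35 lost a call, 20 gained one and 29 changed sign, none of the last among receptors called in the main fit. Olfr78 in P14 against P1 with DOX was not called there and was called lower by limma on both TPM scales. The ectopic, DOX difference and receptor-total calls of MOR28 and MOR10 and the Fzd1lacZ call of MOR28 held in every refit without 1 library. Those refits over all genes kept the gene filter and the trend of spread with level that all 72 libraries gave. Those of the receptor model kept the filter and estimated that trend anew. Few reads limit M71, M72, mOR-EG and MOR23 most. No paired analysis was possible because the labels carry no replicate numbers and numbers in accession order pair nothing.

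With the title ID series as covariate, the ectopic comparison called 1130 genes and 4 receptors. In Fzd1lacZ, 3191 genes were called without libraries over 25% Gm10800-type, 5431 and 6728 by limma on log2(TPM + 1) and log2(TPM + 0.1), and 1 receptor without a filter; the share of counts in receptors differed by 0.163 percentage points without the Gm10800-type family (permutation p = 0.00421). Values there that changed sign were Olfr2 at 0.00036 with DESeq2 size factors and 0.094 in DESeq2, Olfr160 at -0.0024 and Olfr1508 at -0.042 and -0.046 by limma.

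With DOX, the ectopic comparison called 2 receptors without a filter, 2 and 545 genes without P3, 0 and 60 without P1, 0 with 41 or 36 by limma, 436 genes without the Gm10800-rich libraries and 324 with the groups compared alone. Olfr2 was at -0.0014 without the libraries against their label, -0.033 without the Gm10800-rich ones and -0.074 and -0.14 by limma. The DOX difference called 185 and 253 genes by limma and 808 with its own groups, with Olfr160 at 0.032 without P3 and 0.093 and 0.19 by limma.

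DOX in control called 333 genes with DESeq2 size factors, 110 without the libraries against their label, 484 without the Gm10800-rich ones (Olfr17 at -0.037), 46 without P3, 487 in DESeq2, 32 and 14 by limma (Olfr16 at 0.089 and 0.21, Olfr1508 at 0.14 and 0.25), and 1326 with 1 receptor in its own groups. Transgene on against off called 846 genes and 2 receptors without P3 (Olfr16 at 0.067, Olfr2 at 0.057) and 3319 and 2873 genes by limma (Olfr78 at -0.13 and -0.25). By limma, P14 against P0 called 3 receptors on both scales (Olfr160 at -0.044 and -0.024), and P14 against P1 with DOX had Olfr16 at -0.095 and -0.36, Olfr73 at -0.065 and -0.22 and Olfr78 at -0.29 and -0.62. Both of these Olfr78 values were called (limma adjusted p = 0.0384 and 0.0476). The MOR28 to MOR10 ratio of TPM under ectopic Fzd1 was -0.16 (log2). The causes were not tested.

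Leaving out 1 library gave these lowest and highest values: in Fzd1lacZ, 394 and 1997 genes, 1 and 4 receptors, Olfr2 at -0.17 and 0.16, receptor-total Olfr1508 at -0.067 and 0.074, and a receptor share difference of 0.0344 and 0.0656, past the threshold without control P10 replicate 1, control P3 replicate 1, Fzd1lacZ P7 replicate 1, P3 replicate 3 or P10 replicate 3. For DOX in control they were 53 and 186 genes, Olfr160 at -0.040 and 0.39 and Olfr17 at -0.023 and 0.091; for the DOX difference Olfr160 at -0.43 and 0.035 and receptor-total Olfr2 at -0.13 and 0.081; for on against off 2 and 4 receptors. With DOX they were Olfr2 at -0.16 and 0.14, receptor-total Olfr1508 at -0.12 and 0.0027 and Olfr78 at -0.045 and 0.056, and for P14 against P1 Olfr78 at -0.13 and 0.23 and receptor-total Olfr2 at -0.57 and 0.027. The ratio ran from -0.091 to 0.21 under ectopic Fzd1, changing sign without ectopicFzd1 P7 replicate 1, and from -0.17 to 0.022 with DOX, changing sign without ectopicFzd1 DOX P1 replicate 1.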
